A study of Homo sapiens
Mus musculus with 17 samples.

Results

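The genes described here are 5 receptor tyrosine kinases of the insulin and ERBB families (INSR, IGF1R, EGFR, ERBB2 and ERBB3), the hepatocyte growth factor receptor MET, and the insulin receptor substrates IRS1 and IRS2. They were taken by symbol from the human read table, as a panel for receptor feedback when phosphoinositide 3-kinase (PI3K) is inhibited, and make up 8 of its 23368 genes. The data are bulk polyA RNA sequencing of 17 tumours of the human bladder cancer line VM-CUB-1, grown as xenografts in athymic nude mice of strain Hsd:Athymic Nude-Foxn1nu. Reads were mapped apart to the human and the mouse genome, to separate tumour from host transcripts. According to the series description the xenografts are nintedanib-resistant, and its question is the synergism of both drugs.

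All mice were treated for 7 days. Combination tumours (n = 4) received alpelisib at 25 mg/kg with nintedanib at 40 mg/kg, and alpelisib tumours (n = 4) received alpelisib alone at 25 mg/kg. Nintedanib tumours (n = 5) received nintedanib alone at 40 mg/kg, and their titles call 3 of them responders and 2 non-responders, while the series description gives these numbers the other way round. The titles are followed here. Vehicle tumours (n = 4) received 0.5% methylcellulose with 0.1% Tween80. Alpelisib (BYL719) inhibits the alpha isoform of PI3K, and nintedanib blocks the kinases of FGF, PDGF and VEGF receptors. All tumours come from 1 cell line, and athymic mice lack mature T cells. Whether each tumour is from its own mouse is not stated in the labels, so the p-values reflect only the spread among these libraries, which may be technical.

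Receptor tyrosine kinases bind growth factors outside the cell and phosphorylate themselves and docking proteins inside it. The insulin and IGF receptors recruit PI3K through the docking proteins IRS1 and IRS2, and ERBB3 recruits it directly once a partner such as ERBB2 or EGFR has phosphorylated it. In other tumour models, blocking PI3K or AKT is known to let FOXO transcription factors enter the nucleus and raise the transcripts of INSR, IGF1R, IRS2 and ERBB3, which is called receptor feedback.

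The libraries held between 7429753 and 25654879 recovered human reads (median 20312801). Vehicle 3 stood apart, with the fewest human reads. Of its mouse reads 72.9% lay on the genes Rn45s and Lars2, whose sum served here as a proxy for ribosomal RNA. The median of this share was 13.7% over the 17 libraries, and Combination 4, the next highest, had 60.1%. The changes of the panel and the medians of gene lists against vehicle are therefore given also without Vehicle 3, and those of other named genes where it moved them by over 1.5 times or ended a call. All 10 epithelial markers (such as EPCAM, KRT5 and KRT7) were read in every human library. Host markers differed in human reads, also within a cell type. The endothelial marker CDH5 was at 0 in 14 human libraries and PECAM1 had a median of 7.62 normalized counts, while VWF had 280. The leukocyte marker PTPRC had a median of 2.96, while the macrophage marker CD68 had 582. The collagen COL1A1, a fibroblast marker that tumour cells can also express, had 2706, and COL3A1 had 319. The sum of the 15 host markers ranged from 4530 to 8995 normalized counts in combination, 3315 to 6082 in alpelisib, 2494 to 11356 in nintedanib and 2922 to 7942 in vehicle libraries. Levels below are normalized counts in human reads, the deposited unit, which is not divided by transcript length, so levels are not compared between genes. Each change is a limma log2 fold change ± its SE, with Benjamini-Hochberg adjustment over 14533 tested genes, on log2(normalized count + 1), which understates changes of low genes. A gene passed at an adjusted p under 0.05.

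None of the 7 genes that could be tested passed in any treatment against vehicle. In combination against vehicle 0 of 7 passed, where 0.358% of all tested genes passed, and in alpelisib and in nintedanib against vehicle 0 of 7 passed, where 0% of tested genes passed. At an unadjusted p under 0.05, 1 of 7 differed from vehicle in each of the 3 comparisons, INSR every time, beside 18.1%, 18.6% and 7.12% of all tested genes for combination, alpelisib and nintedanib. INSR was lower each time, as were 6.89%, 7.17% and 2.01% of all tested genes at that p. Without Vehicle 3 that count was 3 of 7 in combination (INSR lower, IGF1R and IRS1 higher, beside 16.2% of tested genes) and 1 of 7 in alpelisib and in nintedanib, where it was IRS1, higher, in place of INSR (beside 11.9% and 5.52%). edgeR and limma-voom on the recovered reads also passed 0 of 7 in each. DESeq2 passed 0 of 7 in combination and gave an adjusted p only for ERBB2 in alpelisib and in nintedanib. Weighting libraries by their quality, which gave Vehicle 3 a weight of 0.158, passed 2 members in combination, IGF1R (0.70, adjusted p = 0.0359) and IRS1 (0.98, adjusted p = 0.0301), and 1 in alpelisib, IRS1 (0.89, adjusted p = 0.035), all higher, as were 4.44% and 5.51% of tested genes. These comparisons share their vehicle tumours, so they are not independent of each other.

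**Figure D1:**
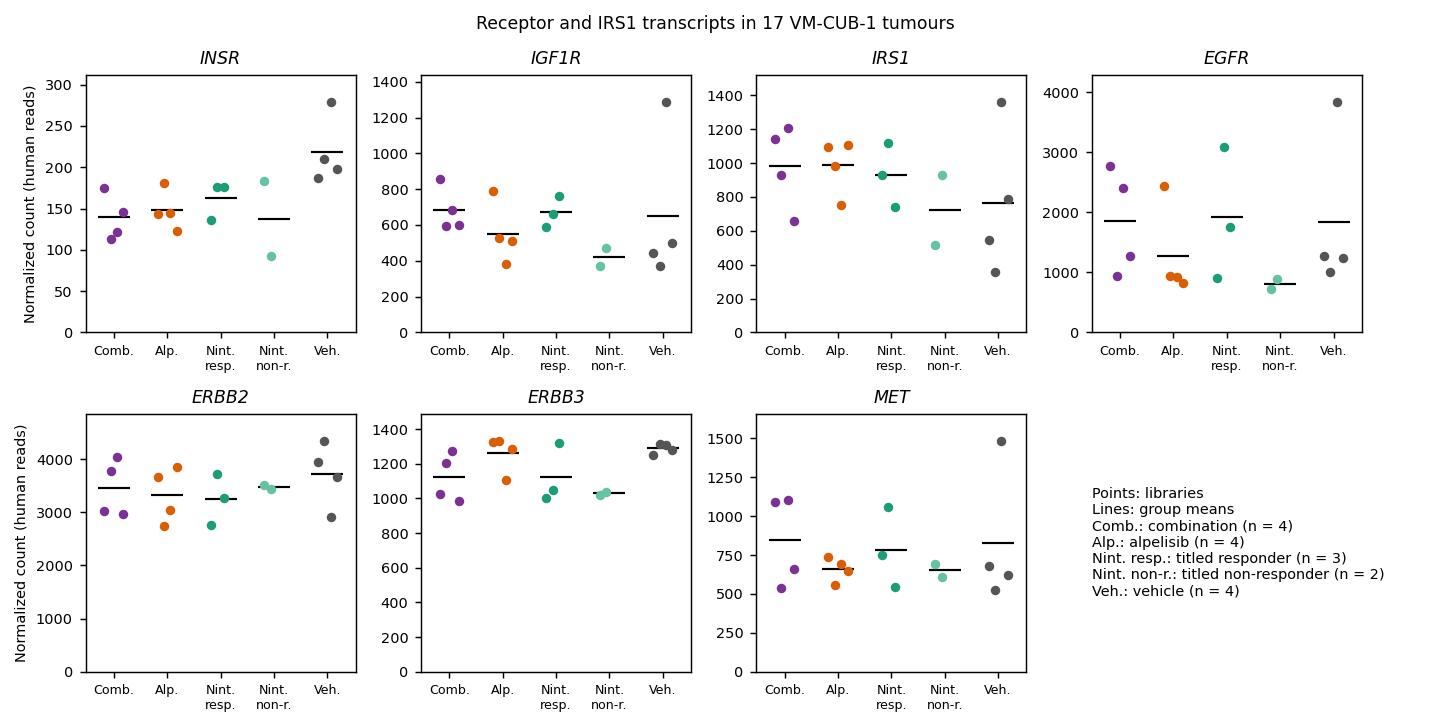
Normalized counts of 7 genes in human reads (y axis, from 0) for each of 17 libraries, grouped as combination, alpelisib, nintedanib responder, nintedanib non-responder and vehicle (x axis). Points are libraries and lines are group means: INSR lies lower in all 13 treated libraries than in all 4 vehicle libraries, and 1 vehicle library (Vehicle 3) is the highest of all in INSR, IGF1R, IRS1, EGFR and MET.

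INSR encodes the insulin receptor. It had 175, 113, 122 and 146 normalized counts in combination tumours, and 143, 181, 144 and 122 in alpelisib tumours (values here and below run from replicate 1 upward). Nintedanib responders had 136, 176 and 176 and non-responders 183 and 92.1, against 187, 210, 279 and 198 in vehicle tumours. Every treated tumour lay below every vehicle tumour, with 183 as the highest treated and 187 as the lowest vehicle value, so that the groups were separated by a narrow gap. INSR was the 1 of 7 genes with lower, non-overlapping values in combination (5.31% of all tested genes), in alpelisib (5.95%), in nintedanib (0.509%) and in all 13 treated tumours pooled (0.206%).

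In fitted terms the INSR change was -0.65 ± 0.24 in combination (95% interval -1.15 to -0.16, limma adjusted p = 0.172), -0.56 ± 0.24 in alpelisib (-1.05 to -0.06, adjusted p = 0.241) and -0.54 ± 0.22 in nintedanib (-1.01 to -0.07, adjusted p = 0.619). None of these passed. Without Vehicle 3 the changes were -0.53 ± 0.24, -0.44 ± 0.24 and -0.42 ± 0.23 for combination, alpelisib and nintedanib, with adjusted p of 0.289, 0.475 and 0.939. INSR was still lower than in the other 3 vehicle tumours in all 13 treated tumours, which then held for 0.667% of tested genes, and in each treatment (9.59% in combination, 8.72% in alpelisib and 1.91% in nintedanib). The mean was 139 ± 27.6 in combination, 148 ± 24.4 in alpelisib and 153 ± 38.5 in nintedanib tumours (SD, n = 4, 4 and 5), against 219 ± 41.2 in vehicle tumours (n = 4).

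The INSR values rest on few reads, 56 to 367 per library, and a large share of the receptor's reads was counted in the mouse table. Mouse Insr held 46.8 to 54.8% of the INSR and Insr reads in combination, 43.4 to 56.6% in alpelisib and 41.5 to 63.8% in nintedanib, against 40.6 to 46.7% in vehicle libraries. Over all genes the mouse share of reads was 14.0 to 33.4% in combination, 13.4 to 23.8% in alpelisib and 17.2 to 25.6% in nintedanib. In vehicle libraries it was 16.7 to 40.6%, with Vehicle 3 the highest. Since reads were mapped apart to each genome, a read that matches both may have been counted in both tables. How many INSR and Insr reads this concerns was not tested. In mouse reads Insr had 125 to 181 normalized counts in combination, 95.5 to 203 in alpelisib and 90.7 to 210 in nintedanib. Vehicle libraries had 110 to 280, so the groups overlapped in mouse reads. In bulk tumours, fewer cells of a type and less RNA per cell cannot be told apart.

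**Figure D2:**
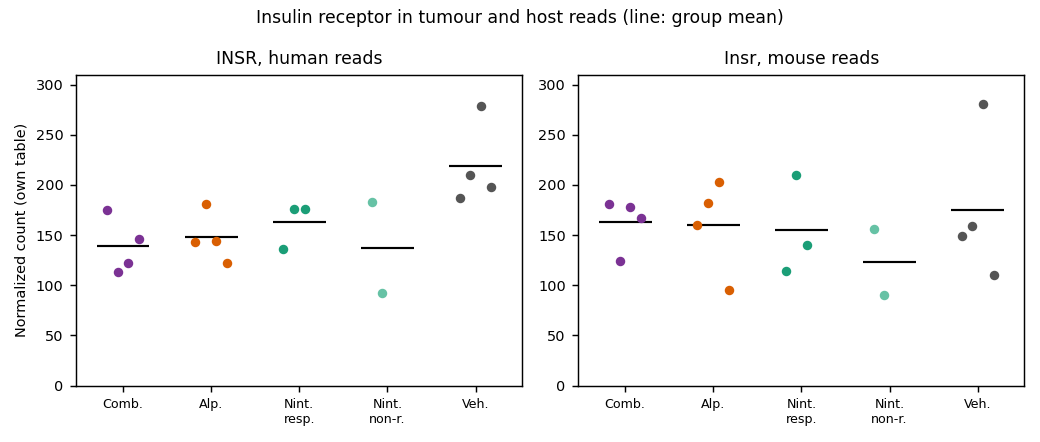
Insulin receptor in human reads (left) and in mouse reads (right), as normalized counts of each species' own table (y axis, from 0) by group (x axis), with a point per library and a line at each group mean. The treated libraries (92.1 to 183) lie below vehicle (187 to 279) in human reads, and in mouse reads they span 90.7 to 210 against 110 to 280 in vehicle.

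The summed levels of ribosomal protein genes and of epithelial markers were higher in combination and alpelisib than in vehicle libraries, without overlap, while nintedanib libraries overlapped with vehicle. The summed level of 25 ribosomal protein genes was 734611 to 1047357 normalized counts in combination, 563046 to 1039399 in alpelisib and 436308 to 881252 in nintedanib, against 198525 to 549907 in vehicle libraries, with Vehicle 3 the lowest. The summed level of the 10 epithelial markers was 673955 to 1226647 in combination, 556968 to 875376 in alpelisib and 413345 to 842396 in nintedanib, against 275686 to 527505 in vehicle libraries. Keratins make up most of this sum. KRT17 had a median of 196686 normalized counts over the 17 libraries and KRT14 of 150709, against 1256 for EPCAM and 2259 for CDH1. By limma 0 of 25 ribosomal protein genes passed in each treatment. At an unadjusted p under 0.05, 21, 24 and 12 were higher in combination, alpelisib and nintedanib. In either direction 18.1%, 18.6% and 7.12% of all tested genes had such a p. The median change of the 25 was 1.125, 1.066 and 0.766 in combination, alpelisib and nintedanib, and 0.678, 0.615 and 0.369 without Vehicle 3. DESeq2 passed 5 of the 25 in combination and 13 in alpelisib, all higher, beside 3.41% and 17.2% of the genes with an adjusted p. Of the 10 epithelial markers 8 had positive changes in each treatment. The median of the 10 was 0.784, 0.649 and 0.392 in combination, alpelisib and nintedanib, and 0.952, 0.851 and 0.563 without Vehicle 3. By limma 1 of the 10, KRT7, passed, higher in combination, beside 0.358% of all tested genes. DESeq2 passed 5 keratins in combination and 5 in alpelisib, all higher. EPCAM lay on the other side, with -0.75 in combination and -0.85 in alpelisib, as did CDH1 with -0.53 in combination, and neither passed by limma. Library quality weights passed EPCAM as lower in combination and in alpelisib. They passed 6 of the 10 markers as higher in combination and 4 in alpelisib. Over the 17 libraries INSR correlated negatively with the ribosomal protein level (Pearson r = -0.707, permutation p = 0.00151, adjusted p = 0.0106 over 28 correlations). Spearman's rho was -0.669 (permutation p = 0.00404, adjusted p = 0.0377). With the 2 libraries farthest from the median INSR left out r was -0.617, without Vehicle 3 it was -0.535, and over deviations from group means it was -0.456. The part of these levels in the INSR difference was not tested.

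IGF1R encodes the receptor for insulin-like growth factors. Combination tumours had 857, 592, 686 and 601 normalized counts and alpelisib tumours 789, 529, 380 and 510. In nintedanib responders it had 590, 661 and 763 and in non-responders 373 and 471, against 441, 370, 1286 and 500 in vehicle tumours. Vehicle 3 was the highest of all 17, and the remaining vehicle tumours all lay below all 4 combination tumours. The change was 0.25 ± 0.31 in combination (95% interval -0.40 to 0.90, limma adjusted p = 0.695), -0.09 ± 0.31 in alpelisib (-0.74 to 0.55) and -0.04 ± 0.29 in nintedanib (-0.65 to 0.58). Without Vehicle 3 it was 0.64 ± 0.22, 0.30 ± 0.22 and 0.35 ± 0.21 for combination, alpelisib and nintedanib, with a limma adjusted p of 0.176, 0.589 and 0.939, so the single-drug values turned in sign. No member was higher without overlap in combination against all 4 vehicle tumours, which 5.27% of tested genes were, and 1 of 7, IGF1R, was so without Vehicle 3, as were 7.62% of tested genes.

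IRS1 encodes the docking protein that links both receptors to PI3K. It had 1144, 929, 1205 and 656 normalized counts in combination tumours and 1097, 982, 755 and 1110 in alpelisib tumours. Responders had 930, 1117 and 743 and non-responders 515 and 930, against 548, 356, 1360 and 786 in vehicle tumours. Vehicle tumours held both the lowest and the highest value of the 17, so all treated groups overlapped with them. Its change was 0.50 ± 0.33 in combination (95% interval -0.18 to 1.18, limma adjusted p = 0.42), 0.53 ± 0.33 in alpelisib (-0.16 to 1.21, adjusted p = 0.356) and 0.28 ± 0.31 in nintedanib (-0.37 to 0.92, adjusted p = 0.723). Without Vehicle 3 the values were 0.84 ± 0.28, 0.86 ± 0.28 and 0.61 ± 0.27 for combination, alpelisib and nintedanib, with limma adjusted p of 0.16, 0.282 and 0.87.

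IRS2 encodes the other docking protein and is a known FOXO target, but it could not be followed in the tumour. The human table held 8 IRS2 reads in all 17 libraries, at most 2 per library, and 11 libraries were at 0. Combination tumours had 2, 2, 0 and 1 reads and all 4 alpelisib tumours had 0. Nintedanib responders had 1, 1 and 0 and non-responders 0 and 0, against 0, 0, 1 and 0 in vehicle tumours. Whether the counting or annotation left out IRS2 reads is not given in the sources used here, so these counts are not read as its level in the tumour, and the gene was not tested. Mouse Irs2 had 6.23 to 35.3 normalized counts in combination, 1.18 to 9.62 in alpelisib and 5.42 to 22.9 in nintedanib, against 5.71 to 29.9 in vehicle libraries, so mouse reads were also few.

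EGFR encodes the receptor for epidermal growth factor and its relatives. It had 2774, 932, 2406 and 1278 normalized counts in combination tumours and 2437, 936, 918 and 826 in alpelisib tumours. Responders had 901, 3090 and 1761 and non-responders 716 and 887, against 1269, 1001, 3836 and 1233 in vehicle tumours. High and low tumours occurred within combination, alpelisib, responder and vehicle groups, and the highest of the 17 was 5.35 times the lowest. The EGFR change was 0.10 ± 0.46 in combination (95% interval -0.87 to 1.08, limma adjusted p = 0.923), -0.45 ± 0.46 in alpelisib (-1.42 to 0.53) and -0.32 ± 0.44 in nintedanib (-1.24 to 0.61), wide intervals that take in changes of 1 log2 unit. Without Vehicle 3 it was 0.53 ± 0.43, -0.02 ± 0.43 and 0.11 ± 0.41 for combination, alpelisib and nintedanib.

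ERBB2 encodes the ERBB receptor that binds no ligand of its own and serves as the partner of the others. Combination tumours had 3022, 3774, 4045 and 2970 normalized counts and alpelisib tumours 3675, 2752, 3054 and 3849. In responders it had 2769, 3718 and 3269 and in non-responders 3516 and 3432, against 3952, 4336, 2917 and 3668 in vehicle tumours. All groups overlapped, and the highest of the 17 values was 1.58 times the lowest, against 3.03 times for INSR and 5.35 times for EGFR. The change was -0.10 ± 0.18 in combination (95% interval -0.49 to 0.28), -0.16 ± 0.18 in alpelisib (-0.54 to 0.23) and -0.15 ± 0.17 in nintedanib (-0.51 to 0.22). Without Vehicle 3, which had the lowest vehicle value, it was -0.22 ± 0.18, -0.27 ± 0.18 and -0.26 ± 0.17 for combination, alpelisib and nintedanib.

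ERBB3 encodes the neuregulin receptor with little kinase activity of its own and many PI3K docking sites. It had 1026, 1206, 1272 and 984 normalized counts in combination tumours and 1324, 1328, 1103 and 1286 in alpelisib tumours. Responders had 1004, 1046 and 1319 and non-responders 1020 and 1038, against 1251, 1314, 1308 and 1279 in vehicle tumours. The vehicle values lay close together, and only 1 of 4 combination and 1 of 5 nintedanib tumours reached them. ERBB3's change was -0.21 ± 0.15 in combination (95% interval -0.53 to 0.11, limma adjusted p = 0.48), -0.03 ± 0.15 in alpelisib (-0.35 to 0.28) and -0.25 ± 0.14 in nintedanib (-0.56 to 0.05, adjusted p = 0.619). Leaving out Vehicle 3 gave -0.20 ± 0.15, -0.03 ± 0.15 and -0.25 ± 0.15 for combination, alpelisib and nintedanib. The upper bounds correspond to 1.08-fold in combination and 1.22-fold in alpelisib relative to vehicle.

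MET encodes the receptor for hepatocyte growth factor. It had 1092, 536, 1106 and 663 normalized counts in combination tumours and 735, 554, 692 and 649 in alpelisib tumours. Responders had 747, 1058 and 542 and non-responders 691 and 612, against 680, 525, 1480 and 619 in vehicle tumours. Vehicle 3 was again the highest, and the groups overlapped with and without it. The MET change was 0.10 ± 0.30 in combination (95% interval -0.54 to 0.74), -0.21 ± 0.30 in alpelisib (-0.85 to 0.43) and -0.09 ± 0.29 in nintedanib (-0.69 to 0.51). Without Vehicle 3 it was 0.42 ± 0.26, 0.11 ± 0.26 and 0.23 ± 0.25 for combination, alpelisib and nintedanib. Mouse reads were a small share for MET (1.45 to 7.0%), ERBB2 (1.68 to 3.9%), ERBB3 (0.66 to 4.55%) and EGFR (1.75 to 12.3%), and a larger one for IRS1 (3.59 to 17.6%) and IGF1R (12.2 to 27.8%).

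**Figure D3:**
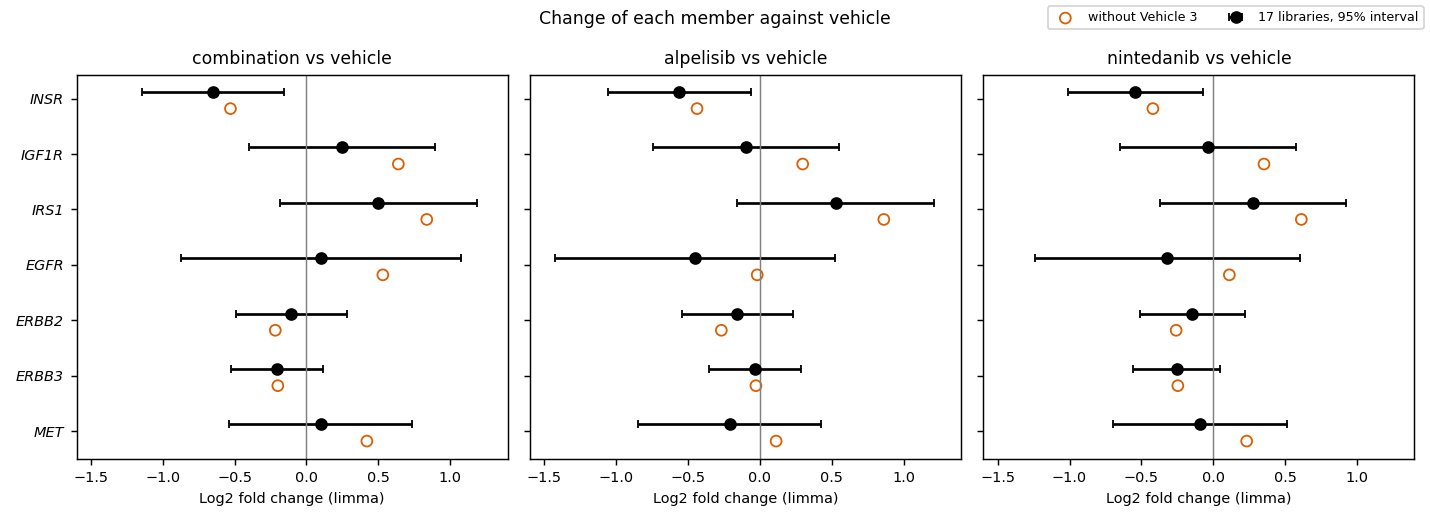
Log2 fold change against vehicle of each tested gene (x axis) in combination, alpelisib and nintedanib; filled points with bars are limma estimates from 17 libraries with 95% intervals, and open points leave out Vehicle 3. The bars of INSR lie below 0 in all 3 panels before adjustment over all genes, and those of the other 6 genes span 0.

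The order of the 5 group means differed from gene to gene. For INSR it ran from 138 ± 64.2 in non-responders (n = 2) through combination, alpelisib and 163 ± 22.9 in responders (n = 3) up to vehicle, and the step from responders to vehicle was the 1 step that exceeded the SD of both neighbours. For the other 6 tested genes, each step between neighbouring groups was within the larger of their SDs. The highest mean was in combination for IGF1R (684 ± 123) and MET (849 ± 293), in alpelisib for IRS1 (986 ± 164), in responders for EGFR (1918 ± 1103) and in vehicle for ERBB2 (3718 ± 600) and ERBB3 (1288 ± 28.9).

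Adding 1 drug to the other was not followed by a detectable difference in any tested member. In combination against alpelisib 0 of 7 passed, as did 0% of tested genes, and 0 had an unadjusted p under 0.05, beside 4.46% of tested genes. The limma changes ran from -0.17 ± 0.15 for ERBB3 to 0.55 ± 0.46 for EGFR (95% interval -0.42 to 1.52), and INSR had -0.09 ± 0.24 (-0.59 to 0.40). In combination against nintedanib 0 of 7 passed, as did 0% of tested genes, with 0 at an unadjusted p under 0.05 beside 3.83% of tested genes. Here the changes ran from -0.11 ± 0.22 for INSR to 0.42 ± 0.44 for EGFR. The departure of the combination from the sum of the single drugs on the log2 scale also passed for 0 of 7 genes and 0% of tested genes, with 0 of 7 and 6.85% at an unadjusted p under 0.05. That departure was 0.45 ± 0.33 for INSR (95% interval -0.23 to 1.13) and 0.87 ± 0.64 for EGFR (-0.48 to 2.21). edgeR, limma-voom and DESeq2 passed 0 of 7 in each of these comparisons.

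Responders against non-responders, which compares 3 with 2 nintedanib tumours, also gave 0 of 7 by limma, edgeR, limma-voom and DESeq2, as did 0% of tested genes by limma. At an unadjusted p under 0.05 the limma count was 0 of 7, beside 1.63% of tested genes. EGFR had 901, 3090 and 1761 normalized counts in responders against 716 and 887 in non-responders, a change of 1.09 ± 0.60 (95% interval -0.17 to 2.35, limma adjusted p = 0.999). IGF1R had 590, 661 and 763 in responders against 373 and 471 in non-responders, a change of 0.67 ± 0.40 (-0.16 to 1.51, adjusted p = 0.999). In these 2 of 7 genes every responder lay above both non-responders, as in 6.85% of tested genes, and neither difference passed.

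Differences between single tumours were shared by several members. EGFR and IGF1R varied together across the 17 libraries, with a Pearson r of log2 values of 0.834 (permutation p = 1e-05, the smallest that 100000 permutations can give, adjusted p = 0.00028 over 28 correlations) and a Spearman's rho of 0.765 (permutation p = 0.00065, adjusted p = 0.0182). IGF1R and IRS1 had r = 0.724 (permutation p = 0.00108, adjusted p = 0.0101) and rho = 0.718 (permutation p = 0.00158, adjusted p = 0.0221). IRS1 and MET had r = 0.603 (permutation p = 0.0107, adjusted p = 0.0499) and rho = 0.642 (permutation p = 0.00666, adjusted p = 0.0466). With the 2 libraries farthest from the median left out, r was 0.79 for EGFR with IGF1R, 0.621 for IGF1R with IRS1 and 0.628 for IRS1 with MET. For IRS1 with MET these were nintedanib non-responder 1 and Vehicle 2, so Vehicle 3 stayed in. Without Vehicle 3, r was 0.775 for EGFR with IGF1R, 0.692 for IGF1R with IRS1 and 0.526 for IRS1 with MET. Over deviations from group means, r for these 3 pairs was 0.801, 0.787 and 0.708, so they varied together within groups when Vehicle 3 was kept in. These within-group values were not computed without Vehicle 3.

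MET also followed EGFR (r = 0.79, permutation p = 0.00041, adjusted p = 0.00574) and IGF1R (r = 0.674, permutation p = 0.00303, adjusted p = 0.017), though not by rank after adjustment (rho = 0.488, permutation p = 0.0495, and rho = 0.507, permutation p = 0.0397, adjusted p = 0.198 for both). Without the 2 farthest libraries r was 0.63 for MET with EGFR and 0.403 for MET with IGF1R. The MET and IGF1R relation rests in part on Vehicle 3, without which r was 0.475. INSR, ERBB2 and ERBB3 showed no correlation with another member that passed adjustment. Over deviations from group means, with Vehicle 3 kept in, the ribosomal protein level correlated with IGF1R at r = -0.886 and with EGFR at r = -0.74. Over the 17 libraries r was -0.512 for IGF1R and -0.532 for EGFR (permutation adjusted p = 0.107 and 0.0842), and rho was -0.118 and -0.426. Without Vehicle 3, r was only -0.06 for IGF1R and -0.274 for EGFR. The part of the ribosomal protein level in the shared variation was not tested.

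**Figure D4:**
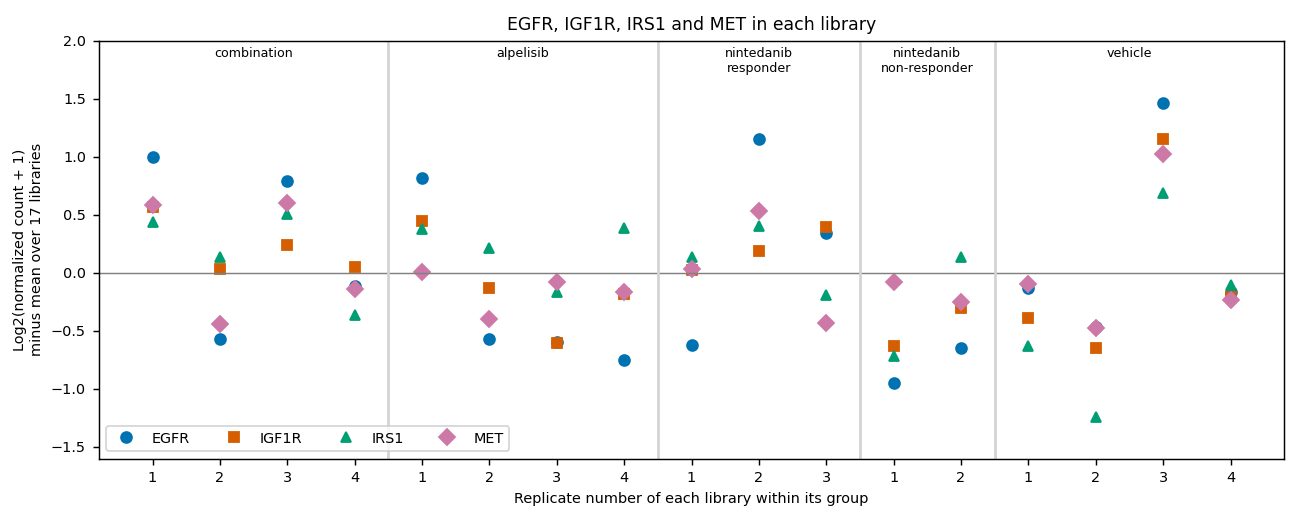
Log2(normalized count + 1) of EGFR, IGF1R, IRS1 and MET minus each gene's mean over 17 libraries (y axis), by library (x axis, replicate numbers within the named groups). The 4 symbols tend to lie on the same side of 0 within a library, as in Combination 1, Combination 3, nintedanib responder 2 and Vehicle 3 above it.

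For each member the other tested genes most alike over the 17 libraries are given by Pearson r, as a description with no test. For EGFR these were the protocadherin FAT1 (0.975) and the kinase WNK1 (0.964). IGF1R was closest to PDZD2, a PDZ domain protein (0.952), and TANC2, a scaffold protein (0.951). IRS1 was closest to the connexin GJA1 (0.957) and the desmoglein DSG3 (0.944), and MET to the RNA-binding protein RBMS1 (0.926) and the integrin chain ITGA2 (0.923). INSR was closest to the ubiquitin ligase TRIM38 (0.907) and the glycosyltransferase GCNT2 (0.9). ERBB2 was closest to the endoplasmic reticulum stress factor ATF6B (0.885) and the transporter ABCC10 (0.86). For ERBB3 the likeness was lower, with PLEKHA7, an adherens junction protein (0.818), and DEPDC5, a subunit of a complex that restrains mTOR (0.781). All of these come from the same libraries and share their depth and RNA quality.

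Ligands of these receptors, and the proteins that hold those ligands, were followed through lists chosen with earlier results of these data known. Calls in these lists depended on the tool: DESeq2 passed 3.41% of all tested genes in combination and 17.2% of the 1008 genes to which it gave an adjusted p in alpelisib, and library quality weights passed 8.28% and 9.6%. edgeR and limma-voom passed the same 2 genes of these 8 lists as limma, IGFBP2 and PIK3R3, both in combination. None of these tools passed a gene of these lists in nintedanib. DESeq2 could not have passed most of them there or in alpelisib, since it gave few of them an adjusted p. These ran from 0 of 8 ERBB ligands to 3 of 7 insulin and IGF genes, alike in both treatments. Of 7 tested insulin and IGF ligands and binding proteins, limma passed 1 in combination, which rose, beside 0.358% of all tested genes, and 0 in alpelisib or nintedanib. The median change of the 7 was 0.94 in combination, 0.47 in alpelisib and 0.31 in nintedanib (0.83, 0.36 and 0.51 without Vehicle 3), beside -0.03, 0.02 and 0.00 over all tested genes. The gene that rose was IGFBP2, which encodes a secreted protein that binds IGFs. IGFBP2 had 228, 236, 264 and 425 normalized counts in combination tumours, and 166, 187, 148 and 147 in alpelisib tumours. Responders had 159, 205 and 54.0 and non-responders 162 and 163, against 124, 73.9, 40.1 and 94.2 in vehicle tumours. All combination tumours lay above every other tumour, for which no share over all tested genes was computed. Against vehicle alone, 5.27% of tested genes were higher in combination without overlap. The IGFBP2 change in combination was 1.85 ± 0.37 (limma adjusted p = 0.0412). This call was lost in 10 of 17 fits that left out 1 library, namely Combination 2, 3 or 4, any alpelisib library, or Vehicle 1, 2 or 3, with an adjusted p up to 0.17, while the change stayed between 1.54 and 2.07. Without Vehicle 3 it was 1.54 (adjusted p = 0.0656). With no filter on low expression the adjusted p was 0.0551, and 0 of all genes then passed in combination.

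The other binding proteins named by rule did not pass by limma, while DESeq2 and quality weights passed IGFBP4 in combination and IGFBP6 in combination and alpelisib. IGFBP4 had a change of 0.94 ± 0.25 in combination (limma adjusted p = 0.103). IGFBP6 had 1.49 ± 0.42 in combination and 1.83 ± 0.42 in alpelisib (limma adjusted p = 0.11 and 0.209), and 0.88 in nintedanib, where it did not pass. Among 8 tested ERBB ligands 0 passed by limma in any treatment against vehicle, with a median of -0.25 in combination, 0.24 in alpelisib and 0.02 in nintedanib (-0.13, 0.48 and 0.30 without Vehicle 3). DESeq2 passed EGF in combination but gave 0 of 8 ERBB ligands an adjusted p in alpelisib. Quality weights passed EGF and NRG1 in combination and in alpelisib. EGF, the founding ligand of EGFR, had 27.8 ± 9.45 normalized counts in combination and 25.1 ± 4.84 in alpelisib, against 61.8 ± 14.5 in vehicle tumours (SD, n = 4 each), with changes of -1.17 ± 0.33 and -1.25 ± 0.33 in combination and alpelisib (limma adjusted p = 0.103 and 0.209). NRG1, a ligand of ERBB3, had 636 ± 224 in combination and 721 ± 127 in alpelisib, against 359 ± 155 in vehicle tumours, with changes of 0.85 ± 0.32 and 1.08 ± 0.32 in combination and alpelisib (adjusted p = 0.176 and 0.209). Of 6 tested genes of the HGF and MSP axis, which holds MET's ligand and the proteases and inhibitors that control its activation, 0 passed by limma, with a median of 0.23 in combination, 0.27 in alpelisib and 0.15 in nintedanib (0.13, 0.13 and 0.01 without Vehicle 3). DESeq2 also passed 0, and quality weights 1, ST14 in alpelisib. There SPINT1, an inhibitor of HGF activation, had 0.48 ± 0.20 in combination, and HGF itself 0.80 ± 0.40 in alpelisib and 0.17 ± 0.40 in combination. SPINT2, a related inhibitor, had 0.30 ± 0.26 in combination and 0.36 ± 0.26 in alpelisib, and 0.03 and 0.10 without Vehicle 3.

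Downstream of the receptors, limma passed 1 of 22 tested genes of the PI3K, AKT and mTOR core in combination, which fell, beside 0.358% of all tested genes, and 0 in alpelisib or nintedanib. The median was 0.08 in combination, -0.18 in alpelisib and -0.19 in nintedanib (0.11, -0.12 and -0.06 without Vehicle 3). The gene that fell was PIK3R3, which encodes a PI3K regulatory subunit that docks on phosphorylated receptors and IRS proteins. PIK3R3 had 819, 742, 603 and 575 normalized counts in combination tumours and 966, 733, 738 and 648 in alpelisib tumours. Responders had 792, 1132 and 1189 and non-responders 1165 and 763, against 1293, 1599, 1466 and 1244 in vehicle tumours. Every treated tumour lay below every vehicle tumour, as in 0.206% of all tested genes. PIK3R3 is named because it had the smallest p of its list in these same data. PIK3R3's change was -1.04 ± 0.20 in combination (limma adjusted p = 0.0361), -0.87 ± 0.20 in alpelisib (adjusted p = 0.209) and -0.49 ± 0.19 in nintedanib (adjusted p = 0.619). The combination call was lost in 9 of 17 fits that left out 1 library, namely Combination 2, 3 or 4, Alpelisib 2, 3 or 4, or Vehicle 1, 2 or 3, with an adjusted p up to 0.149, while the change stayed between -1.13 and -0.96. Without Vehicle 3 it was -1.02 (adjusted p = 0.0602), and with no filter on low expression the adjusted p was 0.0506.

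PIK3CA, which encodes the catalytic subunit that alpelisib inhibits, had a change of 0.08 in combination (limma adjusted p = 0.91) and -0.41 in alpelisib (adjusted p = 0.463), and of 0.36 and -0.13 without Vehicle 3. PIK3CB, which encodes the beta catalytic subunit, had -0.70 ± 0.26 in alpelisib (adjusted p = 0.224), and EIF4EBP1, a translation repressor controlled by mTOR, 1.14 ± 0.38 in combination (adjusted p = 0.152), which was 0.68 without Vehicle 3. Quality weights passed PIK3R3, PIK3CB and SGK1 in alpelisib. Among 14 tested receptor adaptors 0 passed by limma, with a median of -0.15 in combination, -0.01 in alpelisib and -0.08 in nintedanib (-0.07, -0.11 and -0.09 without Vehicle 3). GRB7 passed in combination with DESeq2, with quality weights and, by limma, without Combination 1 (1.18, adjusted p = 0.0481). In alpelisib DESeq2 gave an adjusted p to only 2 of the 14 adaptors. Quality weights also passed SH2B1 in combination, and GRB7 and CRK in alpelisib. ST14, SGK1, SH2B1 and, below, LRIG1 are named for calls with quality weights, after their values were seen. GRB7, an adaptor that binds ERBB2, had 641 ± 156 normalized counts in combination and 636 ± 145 in alpelisib, against 319 ± 55.3 in vehicle tumours, with changes of 0.99 ± 0.26 and 0.98 ± 0.26 in combination and alpelisib (limma adjusted p = 0.0994 and 0.209). CRK, another adaptor, had -0.60 ± 0.26 in combination and -0.79 ± 0.26 in alpelisib.

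**Figure D5:**
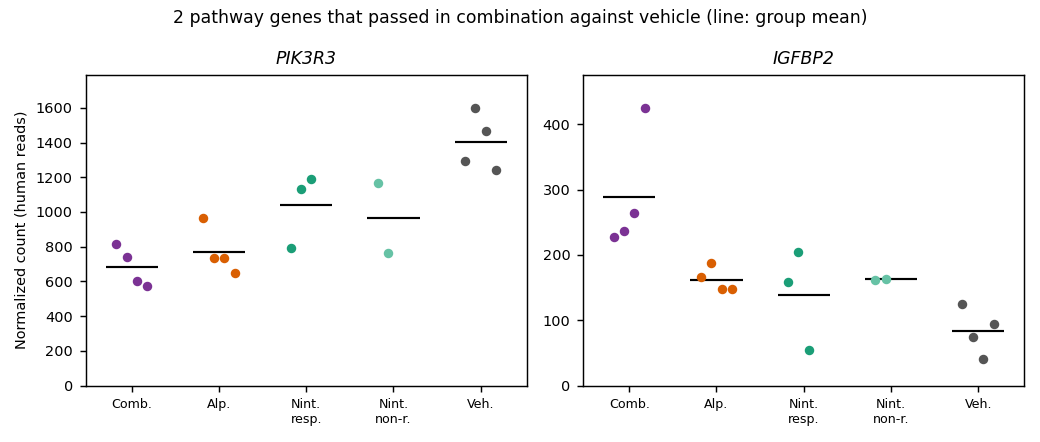
Normalized counts in human reads (y axis, from 0) of PIK3R3 and IGFBP2, the 2 genes of the pathway lists that passed by limma in combination against vehicle, for each library by group (x axis), with lines at group means. PIK3R3 lies at 575 to 819 in combination against 1244 to 1599 in vehicle, and IGFBP2 at 228 to 425 in combination against 40.1 to 124 in vehicle.

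Negative regulators of receptors and PI3K passed by limma for 0 of 25 tested genes in each treatment against vehicle, with a median of -0.14 in combination, -0.02 in alpelisib and -0.05 in nintedanib (-0.02, -0.02 and 0.01 without Vehicle 3). DESeq2 passed SOCS3 and PIK3IP1 in combination, and in alpelisib it gave an adjusted p to only 1 of 25. Quality weights passed 4 of 25 in combination (3 higher, 1 lower) and 5 in alpelisib (3 higher, 2 lower). SOCS3 and PIK3IP1 were higher and LRIG1 lower in both. SOCS3, an inhibitor of cytokine and insulin receptor signalling, had 684 ± 346 normalized counts in combination and 534 ± 150 in alpelisib, against 235 ± 118 in vehicle tumours. Its changes were 1.54 ± 0.40 in combination and 1.27 ± 0.40 in alpelisib (limma adjusted p = 0.0973 and 0.21). PIK3IP1, a membrane inhibitor of PI3K, had 0.96 ± 0.27 in combination (limma adjusted p = 0.106), and PHLPP2, a phosphatase of AKT, -0.97 ± 0.27 in alpelisib (adjusted p = 0.209).

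FOXO factors and targets outside the panel passed by limma for 0 of 13 genes in each treatment, with a median of 0.03 in combination, -0.16 in alpelisib and -0.21 in nintedanib (0.18, -0.11 and -0.05 without Vehicle 3). DESeq2 passed CITED2 in combination, and in alpelisib it gave an adjusted p to only 1 of 13. Quality weights passed 3 of 13 in combination and 3 in alpelisib, with CITED2 and BCL6 in both. CITED2, a transcriptional coregulator, had 2336 ± 391 normalized counts in combination and 2023 ± 499 in alpelisib, against 1248 ± 336 in vehicle tumours (changes 0.93 ± 0.23 and 0.70 ± 0.23, limma adjusted p = 0.0973 and 0.21). BCL6, a transcriptional repressor, had changes of 0.77 in combination and 0.76 in alpelisib (limma adjusted p = 0.168 and 0.221). Of 29 tested other receptor tyrosine kinases, among 48 listed, 0 passed by limma in each treatment, with a median of 0.00 in combination, -0.04 in alpelisib and -0.13 in nintedanib (0.03, -0.07 and -0.08 without Vehicle 3). AXL, the GAS6 receptor, had 856 ± 191 in combination and 709 ± 195 in alpelisib, against 404 ± 166 in vehicle tumours (changes 1.15 and 0.86, limma adjusted p = 0.104 and 0.223). NTRK3, a neurotrophin receptor, had a change of -1.77 in combination, RYK, a Wnt receptor, -0.43 in alpelisib, and MST1R, the MSP receptor related to MET, 0.31 in combination, and none of these passed by limma. AXL and NTRK3 passed in combination with DESeq2, and in combination and alpelisib with quality weights. In alpelisib DESeq2 gave an adjusted p to only 2 of the 29 kinases. In nintedanib AXL had a change of 0.92 and NTRK3 of -1.12, and neither passed. NTRK3 had -1.15 in alpelisib.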

How the data were processed

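Polyadenylated RNA of 17 tumours was sequenced as 75 bp paired-end reads, per the labels' protocols. The deposited values are normalized counts per gene (a signal that the authors scaled per library) in a human and a mouse table. Bowtie, TopHat, DESeq2, hg19 and mm10 are named in the submitters' processing notes without versions. The counter, annotation and strand setting are not given in the sources used here. Dividing each library by its smallest step gave whole reads for 100.0% of values (tolerance 0.002), which set the depths given.

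limma 3.58.1 (R 4.3.3) was fitted to log2(normalized count + 1) of 14533 human genes with a mean of at least 10, with 5 group means and 7 contrasts. The 5 nintedanib libraries were weighted equally. Alternatives used edgeR 4.0.16, limma-voom and DESeq2 1.42.0 on recovered reads, TMM scaling, pseudocounts of 0.5 and 5, other filters, a replicate block, library quality weights, a ribosomal RNA covariate and leaving out each library. Correlations used 100000 permutations (scipy 1.17.1). Scripts were tested on simulated data. No pair of libraries within a group agreed within sampling noise (lowest chi-square per gene 17.5 over 22 pairs).

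The members, lists and tests were chosen with earlier results of these data known. Besides the members and PIK3CA, the 2 genes of each list with the smallest p in combination and in alpelisib against vehicle are named, and for each member the 2 most correlated genes. For ribosomal proteins and marker genes, groups are described. No read sequences or transcript lengths were used.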

Additional observations from a re-analysis of the deposited data

Results flagged for a closer look

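A sample was picked out where its gap to the nearest library exceeded Dixon's 95% critical value for its group, a test made for 28 groups of 4 or 5 libraries. Chance gives about 1 such result in 20 groups, and 5 were found. Of these, 3 were in Vehicle 3, the library with the fewest human reads: IGF1R at 1286 normalized counts, EGFR at 3836 and MET at 1480. EGFR was at 2437 in Alpelisib 1, where the other 3 alpelisib libraries had 826 to 936. ERBB3 was at 1319 in nintedanib responder 3, where the other nintedanib libraries had 1004 to 1046.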

How the results depend on the processing

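For 7 comparisons of 7 genes, limma gave 49 changes, each refitted under 28 alternatives (1372 values), of which 45 turned in sign and 3 crossed the threshold; DESeq2 gave no adjusted p for 6 of 7 members in alpelisib and in nintedanib against vehicle. Library quality weights, which gave Vehicle 3 a weight of 0.158 and Vehicle 1 a weight of 4.13, passed 2 members in combination against vehicle, IGF1R (0.70, adjusted p = 0.0359) and IRS1 (0.98, adjusted p = 0.0301), and 1 in alpelisib, IRS1 (0.89, adjusted p = 0.035), beside 4.44% and 5.51% of all tested genes that passed higher. Under these weights the change turned for IGF1R (0.23) and MET (0.0289) in alpelisib, for IGF1R (0.37), EGFR (0.0719) and MET (0.13) in nintedanib, and for IRS1 in combination against alpelisib (0.0912). edgeR turned EGFR in combination (-0.0326) and IRS1 in combination against alpelisib (0.0129), and the ribosomal RNA covariate turned ERBB2 (0.0174) and PIK3CA (-0.0578) in combination. The cause was not tested.

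Leaving out 1 library at a time turned the following changes, none of which passed. Against vehicle these were, in combination, EGFR (-0.14 to 0.53), MET (-0.0773 to 0.42) and PIK3CA (-0.0549 to 0.36), in alpelisib, IGF1R (-0.3 to 0.3), ERBB3 (-0.0614 to 0.0279) and MET (-0.38 to 0.11), and in nintedanib, IGF1R (-0.25 to 0.35), IRS1 (-0.0298 to 0.61), EGFR (-0.64 to 0.11) and MET (-0.27 to 0.23). In combination against alpelisib they were INSR (-0.21 to 0.0101), IRS1 (-0.15 to 0.16) and ERBB2 (-0.0364 to 0.12), and against nintedanib ERBB2 (-0.0391 to 0.11) and ERBB3 (-0.0157 to 0.12). The departure from additivity turned for IGF1R (-0.0118 to 0.59) and IRS1 (-0.64 to 0.00408), and responders against non-responders for INSR (-0.18 to 0.8), IRS1 (-0.0189 to 0.83), ERBB2 (-0.21 to 0.00508), ERBB3 (-0.0055 to 0.19) and MET (-0.0309 to 0.45). Without Vehicle 3, 1 member was higher without overlap in combination, where 0 were with it. INSR kept its sign against vehicle throughout.

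Replicate numbers did not pair the tumours: 7 of 29 same-numbered pairs correlated above 0.1 (-0.554 to 0.508), and 1 of 17 libraries correlated best with its own number. With the replicate block 0 members passed, and in combination against vehicle 29 genes did in place of 52, with PIK3R3 at -1.04 (adjusted p = 0.0585). Combination against vehicle passed 496 genes with DESeq2 and 1204 with quality weights, and 0 without any of Combination 2, 3 or 4 or Vehicle 1, 2 or 3. With no expression filter 0 genes passed there. INSR, with 56 to 367 reads per library, had the fewest of the 7 tested members.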
